A study of Mus musculus with 15 samples.

Results

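Complement is a cascade of plasma proteins that tags foreign or damaged surfaces and calls in white blood cells. Of its genes, 10 were examined in whole blood: the 3 chains of the recognition molecule C1q (C1qa, C1qb, C1qc), the C1r-like protease C1rl, the central component C3, factor B (Cfb) and properdin (Cfp) of the alternative pathway, and the receptors C3ar1, C5ar1 and C5ar2. The genes were taken by name, with earlier results of these data known. The Ensembl identifiers of the count tables were matched to symbols, and 10 of 10 were found among 55416 gene identifiers. A list of 46 further complement genes served for comparison.

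C1q bound to a surface starts the classical pathway, while properdin steadies the enzyme that C3 and factor B form in the alternative pathway. Cleavage of C3 and C5 frees small peptides, the anaphylatoxins, which act on C3ar1, C5ar1 and C5ar2 of myeloid cells. The liver makes most plasma complement, but neutrophils are a known store of properdin, neutrophils and monocytes carry C5ar1, and macrophages are the main source of C1q.

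Blood was drawn from the cheek of 15 C57BL/6 mice, 5 per group, and 1 library was made per mouse. According to the labels, 1000000 4MOSC1 cells, a line from a carcinogen-induced squamous carcinoma of the mouse mouth, were placed in the tongue of the animals and grew for 10 days. The methods describe female mice of 4 to 6 weeks. The groups were untreated mice with no surgery, mice with 2 doses of αCTLA-4 (an antibody against the T cell checkpoint receptor CTLA-4) and an early neck dissection (early ND), and mice with the same antibody and a late neck dissection (late ND). The same transplantation is entered for the untreated mice, so all 3 groups share it by the labels. The study's own accounts differ on whether blood was drawn before or after the late operation. A figure legend dates the blood before it, and the text places the blood after it. Late ND therefore names the group and not a completed surgery, and after late ND means in mice of that group. Both ND groups received αCTLA-4. The untreated group differs from early ND in antibody and surgery together, which cannot be told apart. It differs from late ND in antibody, and also in surgery if the late operation came before the blood was drawn. In the other case late and early ND differ in whether surgery had been done. Nothing states that mice of a group came from separate cages or days, so p-values measure the spread between mice only.

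Between 5527108 and 13924361 counts fell on genes per library. Hemoglobin genes took 31.6 to 61.7% of them in untreated mice, 38.3 to 64.1% after early ND and 14.9 to 29.3% after late ND. Apart from the rest stood untreated 2, late 2 and late 3, 3 libraries in which the 18S gene Rn18s-rs5 had 313 to 766 CPM (counts per 1000000 gene counts of a library), against 13402 or more in the other 12. Levels are given as CPM normalized by TMM, a scaling that sets most genes equal between libraries, and refer to the RNA of the whole sample: fewer cells of a type and less RNA per cell cannot be told apart. All listed neutrophil, monocyte, B cell and T cell markers and 5 of 6 platelet markers were detected in each group, while hepatocyte markers summed to at most 3.02 CPM in any library.

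The 3 C1q genes lie side by side on the minus strand of chromosome 4 (GRCm39), C1qb at chr4:136606009-136613511, C1qc at chr4:136616466-136620376 and C1qa at chr4:136623223-136626161. C5ar2 (chr7:15968503-15978121) and C5ar1 (chr7:15980668-15993465) are likewise neighbors on chromosome 7. C1rl (chr6:124470055-124487604) and C3ar1 (chr6:122823393-122833122) lie on chromosome 6, Cfb (chr17:35074852-35081559) and C3 (chr17:57510964-57535155) on chromosome 17 and Cfp (chrX:20791688-20797794) on the X chromosome.

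The 200 bases upstream of the annotated start of the canonical transcript were read from GRCm39 for 7 genes. These were C1rl, which differed between the ND groups, and 2 sets that varied together over mice, C3 with Cfp and C5ar1, and the C1q chains. The 2 sets were not separate, since C3 also correlated with C1qb and C1qc. Capitals mark matches, on either strand, to GAGGAA (the core bound by PU.1, an ETS factor of myeloid cells), TTGCNNAA (a C/EBP half-site pair) or TTCNNNGAA (a gamma-activated site, bound by STAT factors). One more motif, that of the interferon-stimulated response core, was searched as well.
C1rl, chr6:124469855-124470054, plus strand: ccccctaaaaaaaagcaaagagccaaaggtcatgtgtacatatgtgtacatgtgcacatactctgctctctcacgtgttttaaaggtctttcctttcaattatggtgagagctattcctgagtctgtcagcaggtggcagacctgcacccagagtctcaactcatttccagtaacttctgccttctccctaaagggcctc
C3, chr17:57535156-57535355, minus strand: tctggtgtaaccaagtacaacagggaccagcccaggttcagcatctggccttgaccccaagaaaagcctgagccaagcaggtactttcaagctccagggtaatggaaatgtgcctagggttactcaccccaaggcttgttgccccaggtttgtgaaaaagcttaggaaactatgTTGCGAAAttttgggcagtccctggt
Cfp, chrX:20797795-20797994, minus strand: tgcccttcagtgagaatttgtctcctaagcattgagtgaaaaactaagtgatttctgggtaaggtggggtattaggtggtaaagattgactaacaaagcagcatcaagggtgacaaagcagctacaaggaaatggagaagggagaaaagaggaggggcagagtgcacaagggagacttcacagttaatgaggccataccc
C5ar1, chr7:15993264-15993463, minus strand: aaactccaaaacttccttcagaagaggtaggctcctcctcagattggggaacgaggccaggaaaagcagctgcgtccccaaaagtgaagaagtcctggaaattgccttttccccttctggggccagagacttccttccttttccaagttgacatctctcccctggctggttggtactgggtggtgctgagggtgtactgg
C1qb, chr4:136613512-136613711, minus strand: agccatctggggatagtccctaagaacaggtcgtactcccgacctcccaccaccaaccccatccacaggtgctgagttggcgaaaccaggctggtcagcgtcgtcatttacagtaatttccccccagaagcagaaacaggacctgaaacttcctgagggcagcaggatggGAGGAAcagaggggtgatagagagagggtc
C1qc, chr4:136620377-136620576, minus strand: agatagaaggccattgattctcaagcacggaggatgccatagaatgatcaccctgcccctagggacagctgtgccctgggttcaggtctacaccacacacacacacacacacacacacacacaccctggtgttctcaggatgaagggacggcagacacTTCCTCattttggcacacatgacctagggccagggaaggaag
C1qa, chr4:136626162-136626361, minus strand: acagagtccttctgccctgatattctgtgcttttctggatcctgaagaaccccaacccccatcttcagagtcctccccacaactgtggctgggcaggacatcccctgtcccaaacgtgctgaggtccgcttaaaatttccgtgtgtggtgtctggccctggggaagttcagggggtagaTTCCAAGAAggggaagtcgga

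GAGGAA was found upstream of C1qb, 30 bases before the start, and of C1qc, 42 bases before it on the opposite strand. TTGCNNAA was found upstream of C3 and TTCNNNGAA upstream of C1qa. Of 21757 promoters of the same length, 18.8% held GAGGAA, 7.2% TTGCNNAA, 6.1% TTCNNNGAA and 2.4% the response core, which was in none of the 10. Matches of this kind are a description of letters. The windows of C1rl, Cfp and C5ar1 held none of the 4 motifs, and neither did those of Cfb, C3ar1 and C5ar2.

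Per kilobase (kb) of exon, the complement RNA of blood was led by receptors, regulators and properdin. Ranked with the 46 other genes, C5ar1 had rank 3 at a mean of 29.0 CPM per kb over the 15 libraries, and Cfp rank 4 at 27.0. C3 followed at 12.7, C5ar2 at 5.37 and C1rl at 1.37 CPM per kb. C1qa (0.792), C1qc (0.509), C3ar1 (0.460) and C1qb (0.408) stood below 1 CPM per kb. Cfb was barely detected, with 4 counts in all 15 libraries together.

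The order C5ar1, Cfp, C3, C5ar2 held in all 3 groups by their means. C5ar1 and Cfp did not differ beyond their spread in any group: C5ar1 was the higher of the pair in 3 of 5 untreated mice, 3 of 5 after early ND and 4 of 5 after late ND. Cfp exceeded C3 per kb in each of the 15 mice. C5ar2 was above C1rl in 5 of 5 untreated and 5 of 5 late ND mice, with no overlap of the libraries. Below C1rl the neighbors in the order overlapped in untreated mice.

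Among the other complement genes the highest per kb were Itgb2 (95.2 CPM per kb), the β2 integrin chain of complement receptors 3 and 4, and Clu (62.0), the fluid-phase regulator clusterin. Cd55 (14.97) speeds the decay of C3-cleaving enzymes, Itgam (9.001) is the αM chain of complement receptor 3, and Cd59a (6.49) blocks the membrane attack complex. Of the 46 genes, 9 had 0 counts in all 15 libraries and 25 a mean under 1 CPM, while 12 reached 10 CPM.

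**Figure D1:**
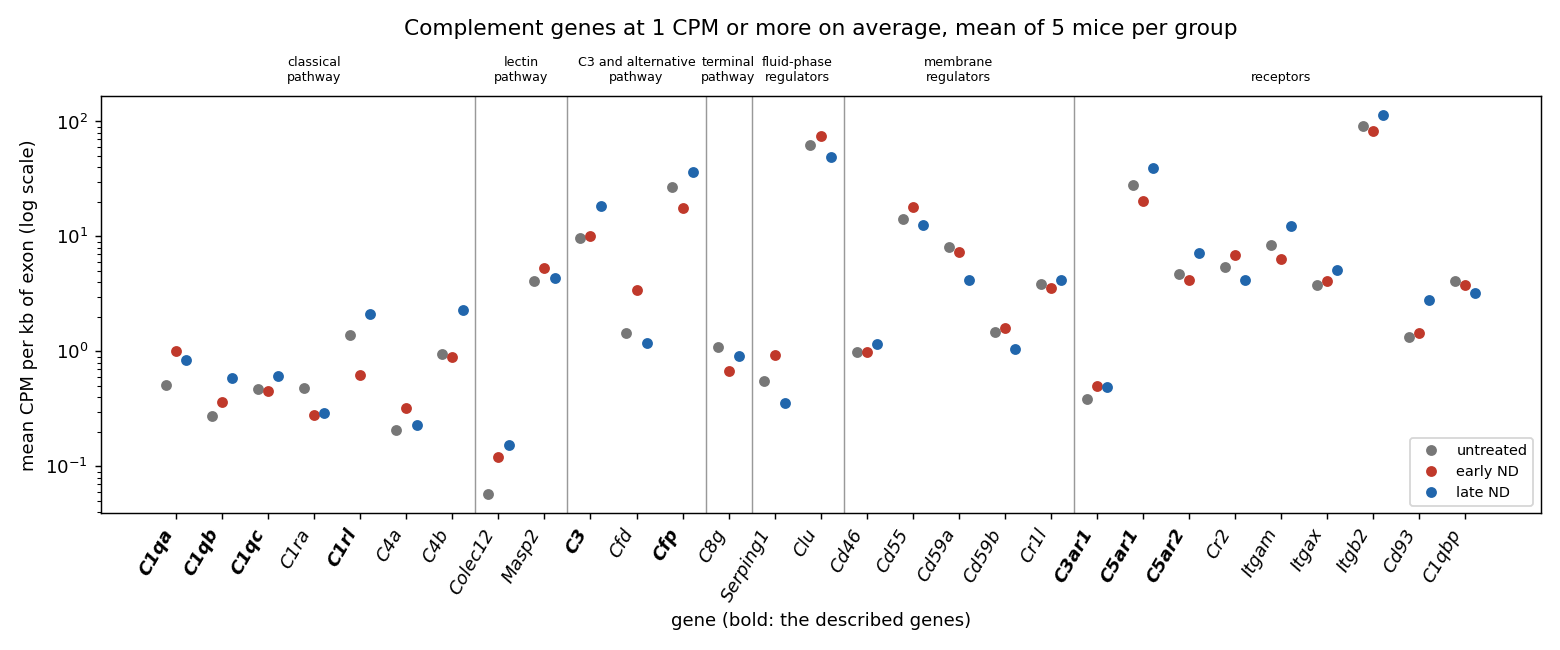
Mean level in CPM per kb of exon (log scale) of 29 complement genes with at least 1 CPM on average, grouped by role, with 1 point per group of 5 mice. The described genes are in bold. C5ar1 and Cfp lie near Clu and Itgb2 at the top, whereas the C1q chains and C3ar1 lie near or below 1 CPM per kb.

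The late and early ND groups, which the study compared for the timing of surgery, differed most in C1rl. In edgeR's quasi-likelihood test, 1 of the 9 members that passed the filter on low counts was called at an adjusted p under 0.05, against 4.98% of all 13315 genes tested. At an unadjusted p under 0.05 there were 5 of 9 (C1rl, Cfp, C3, C5ar1, C5ar2), all higher after late ND, against 23.8% of all genes in either direction. The median log2 fold change of the 9 was 0.77, and that of all genes tested was 0.014. The members were chosen with earlier results of these data known, and several varied together over mice, so the 5 are not separate observations. Cfb did not pass the filter. DESeq2's Wald test on the same counts called 4 members, namely C1rl, Cfp, C3 and C5ar1, against 10.8% of all genes, and edgeR without a filter on low counts called these and C5ar2, against 4.47%.

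C1rl encodes a protease related to C1r, the enzyme that C1q sets to work. Its level was 5.61, 2.91, 2.01, 5.22 and 5.30 CPM in the untreated mice, 1.27, 0.991, 2.46, 3.60 and 1.09 after early ND and 7.78, 4.75, 4.54, 8.69 and 6.17 after late ND. All 5 late ND mice were above all 5 early ND mice, the lowest late ND value being 4.54 and the highest early ND value 3.60. No other member separated the groups, and 5.91% of all genes tested did so in this comparison. Late ND mice averaged 6.39 ± 1.83 CPM and early ND mice 1.88 ± 1.13 CPM (SD, n = 5 each). The log2 fold change was 1.86 (SE 0.34, 3.64-fold, edgeR adjusted p = 0.0132). With each mouse left out in turn it ran from 1.699 to 2.101, with adjusted p (edgeR) from 0.0103 to 0.0399.

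The C1rl call rested on few reads. From 5 to 18 counts fell on the gene per early ND library and from 86 to 119 per late ND library. It was lost among the 8 libraries rich in 18S (log2 fold change 2.09, edgeR adjusted p = 0.0509) and once the hemoglobin share entered the model (2.75, edgeR adjusted p = 0.419), a share that did not overlap between the 2 groups. Of the exon bases, 40.2% lie opposite annotated noncoding genes. One of these, Gm44096, had at most 4 counts in any library, and the other, Gm67279, is not in the count tables. Whether reads were counted by strand is not given in the sources used here, so antisense reads cannot be separated.

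Properdin RNA was next in size. Cfp stood at 42.9, 55.3, 27.2, 56.4 and 51.0 CPM in untreated mice, 24.0, 21.5, 45.01, 20.5 and 43.7 after early ND and 61.1, 38.95, 62.9, 101 and 54.0 after late ND. The early ND mice formed a low set of 3 and a higher pair, early 3 and early 5, and late 2 was the only late ND mouse within their range. The log2 fold change of late against early ND was 1.04 (SE 0.28, 2.06-fold), just above the threshold (edgeR adjusted p = 0.0529).

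C3, whose cleavage all pathways share, had 53.3, 44.3, 24.7, 68.4 and 60.4 CPM in untreated mice, 35.8, 33.8, 77.3, 45.7 and 68.8 after early ND and 95.3, 52.3, 72.9, 135 and 123 after late ND. Late 1, late 4 and late 5 lay above every early ND mouse. The log2 fold change was 0.88 (SE 0.29, edgeR adjusted p = 0.0919). Late ND mice averaged 95.6 ± 34.2 CPM of C3, early ND mice 52.3 ± 19.7 and untreated mice 50.2 ± 16.8 (SD, n = 5 each).

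C5ar1, the main signaling receptor for C5a, measured 72.5, 79.6, 31.3, 91.6 and 82.8 CPM in untreated mice, 36.9, 34.5, 97.5, 29.5 and 60.7 after early ND and 92.6, 63.5, 110, 148 and 86.8 after late ND. Early 3 reached the late ND range, and the other early ND mice stayed below all late ND mice. C5ar2, a C5a receptor that does not couple to G proteins, had 10.8, 21.2, 22.4, 20.4 and 29.3 CPM in untreated mice, 11.7, 14.9, 34.2, 14.7 and 17.0 after early ND and 27.4, 27.2, 34.3, 43.6 and 25.1 after late ND. Here too early 3 was the only early ND mouse inside the late ND range. The log2 fold changes were 0.95 (SE 0.32, edgeR adjusted p = 0.0977) for C5ar1 and 0.77 (SE 0.27, edgeR adjusted p = 0.106) for C5ar2.

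Several calls turned on the mouse early 3. Without it, 5 members passed edgeR's test: C1rl, Cfp (log2 fold change 1.23, adjusted p = 0.0208), C3 (1.08, adjusted p = 0.0320), C5ar1 (1.33, adjusted p = 0.0142) and C5ar2 (1.15, adjusted p = 0.00849). The calls among all genes rose as well, to 11.8%. Without late 2, 3 members passed (C1rl, Cfp and C3), against 6.17% of all genes, and without early 5, 2 passed (C1rl and Cfp), against 4.07%. The neutrophil markers summed to 7279 CPM in early 3 and 6559.5 CPM in early 5, the 2 highest of the early ND group (2321 to 7279). They summed to 5591 to 14891 CPM after late ND and 4427 to 11609 CPM in untreated mice. Of the 10 neutrophil markers, 1 was called higher after late than after early ND, and the median difference over the 10 was 1.06 on the log2 scale. Classical monocyte markers summed to 1879 to 2424 CPM after late ND and to 695 to 1921 CPM after early ND, with 4 of 8 called higher. The part of these cell types in the member differences was not tested.

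C3ar1, the receptor for C3a, did not follow this pattern. It had 1.20, 1.94, 1.43, 2.19 and 2.89 CPM in untreated mice, 1.78, 1.98, 2.05, 3.96 and 2.83 after early ND and 4.70, 2.32, 2.14, 1.84 and 1.32 after late ND. Late ND held both the highest and the lowest of the 10 ND values. Its log2 fold change of 0.05 (SE 0.36) was within the spread between mice (edgeR adjusted p = 0.960) and changed sign when single mice were left out, from -0.32 to 0.21.

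The C1q chains were low and scattered. C1qa had 0.801, 0.624, 0.860, 1.18 and 0.643 CPM in untreated mice, 4.06, 0.495, 3.27, 0.360 and 0 after early ND and 1.54, 0.280, 1.703, 1.55 and 1.76 after late ND. The count of 0 in early 5 allows a level of up to 0.653 CPM (3 counts, counting error only). Early 1 and early 3 were the highest of all 15 mice, and their fibroblast markers summed to 34.2 and 46.4 CPM, against 3.52 to 29.0 CPM in the other 13. Dcn alone gave 21.6 CPM of this sum in early 1 and 26.2 CPM in early 3. Dcn, Col1a1, Col1a2 and Pdgfra were highest in early 1 or early 3. Lum was highest in early 4 (4.68 CPM) and Col3a1 in early 5 (7.18 CPM). The tissue macrophage markers of early 1 and early 3 summed to 29.7 and 27.8 CPM, inside the range of 20.3 to 59.6 CPM over the 15 mice. Adgre1 made up most of both sums, though it was among the lowest there (17.9 and 16.2 CPM). Of the other markers on this list, Cd163 was highest of all mice in the same pair (2.67 and 3.41 CPM). Mrc1 was highest in early 3 (3.27 CPM) and Cd5l in early 1 (2.79 CPM). Vsig4 and Lyve1 were highest in early 4, Spic in late 1, and Timd4 and Marco in untreated 4. Sebaceous gland markers summed to 620 CPM in early 3, the highest of the early ND mice, and to 114 CPM in early 1. They were higher still in untreated 5 (1137 CPM) and late 5 (778 CPM). Whether other tissue entered these samples was not tested.

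C1qb had 2.40, 0.763, 1.43, 1.85 and 2.09 CPM in untreated mice, 2.54, 1.32, 4.23, 2.16 and 1.09 after early ND and 6.42, 1.04, 2.93, 4.49 and 3.46 after late ND. C1qc had 1.20, 0.971, 0.574, 2.696 and 1.29 CPM in untreated mice, 1.65, 0.330, 2.73, 1.08 and 0.653 after early ND and 2.17, 0.200, 1.75, 1.99 and 2.58 after late ND. Late 2 was the lowest late ND mouse for all 3 chains, and the groups overlapped for each. Log2 fold changes of late against early ND were -0.45 (SE 0.70) for C1qa, 0.63 (SE 0.47) for C1qb and 0.33 (SE 0.61) for C1qc, with edgeR adjusted p from 0.452 to 0.796. The macrophage markers Timd4 and Marco were at or near 0 in every group. Timd4 was found only in untreated 4, early 2 and early 3, at up to 1.01 CPM. Marco was found only in untreated 4, early 1 and early 2, at up to 0.337 CPM. The 9 tissue macrophage markers summed to 38.4 to 59.6 CPM after late ND and 20.3 to 43.3 CPM after early ND, most of it Adgre1.

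Factor B, the protease of the alternative pathway, gave 2 counts in untreated 3 and 1 count each in early 1 and late 5, and 0 in the other 12 libraries. Levels at or under 3 counts per library (0.120 to 1.20 CPM) do not allow a comparison. In addition, 65.7% of the Cfb exon bases are shared on the same strand with Gm20547 (0 counts in all libraries) and 49.8% lie opposite Nelfe. The count is uncertain for this overlap.

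**Figure D2:**
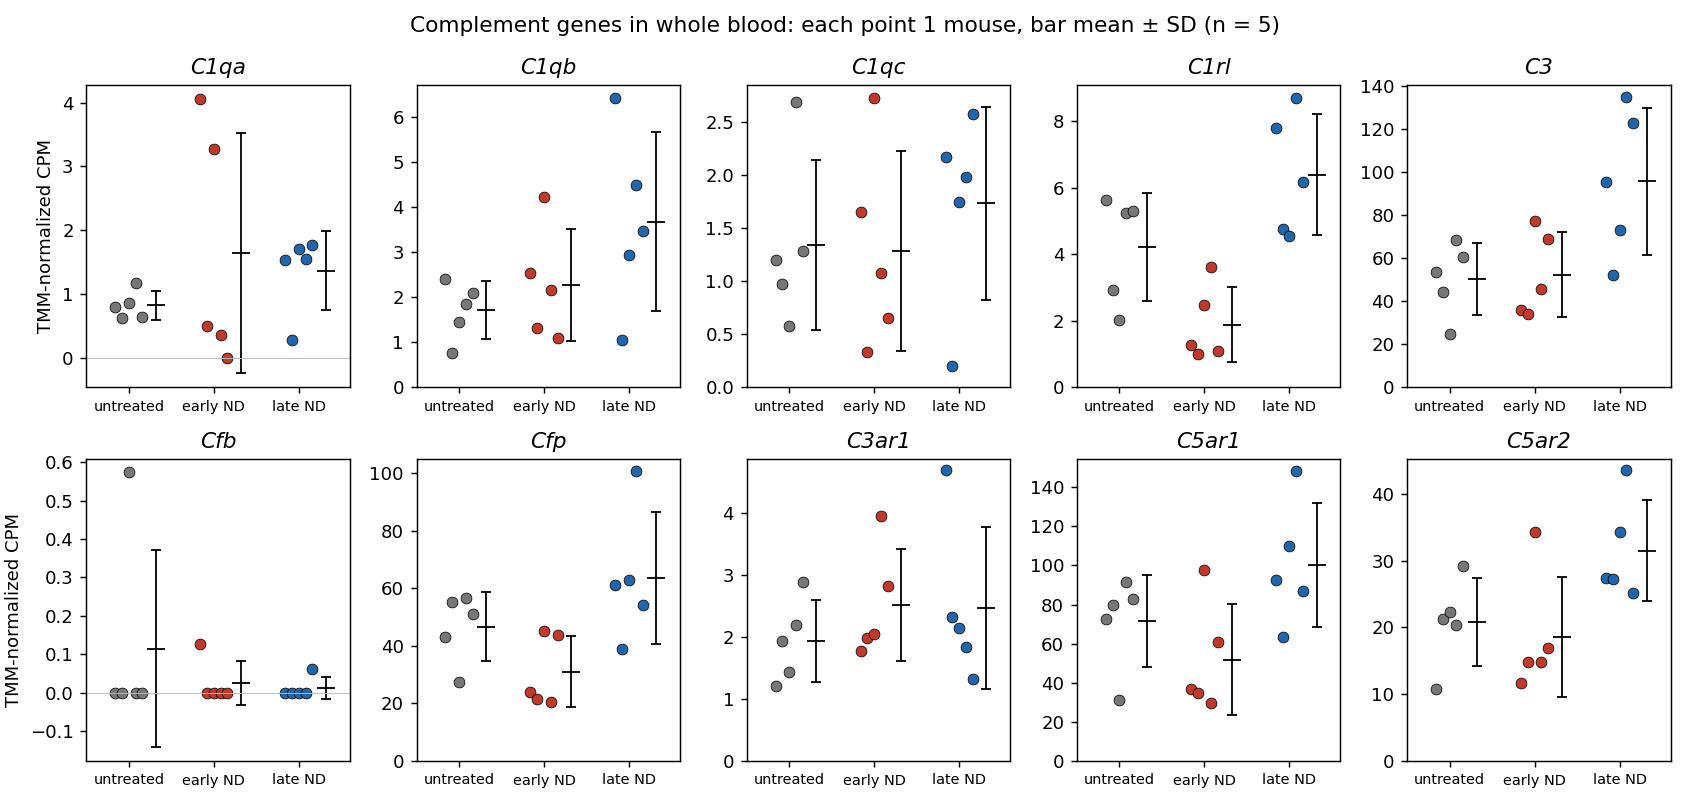
TMM-normalized CPM (linear axis) of the 10 genes, with 1 point per mouse and the mean ± SD of 5 mice beside each group. C1rl is the gene whose 5 late ND points (4.54 to 8.69) all lie above its 5 early ND points (0.991 to 3.60), and the early ND mouse at 97.5 for C5ar1 and 34.2 for C5ar2 is early 3.

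Against untreated mice, no member was called after late ND in edgeR's test with TMM and the filter on low counts, without blocks. There 0 of 8 members passed, where 3.0% of 13547 genes did, and DESeq2 called 1, C3, against 5.98%. Without the filter edgeR called C3 (adjusted p = 0.0406), with 170 genes higher and 292 lower of 28562. With the replicate number added to the model as a block, edgeR called C3 (adjusted p = 0.00979). That fit called 230 genes higher and 377 lower of 13547. At an unadjusted p under 0.05 there were 3 of 8, against 17.0% of all genes: C3 (log2 fold change 0.92, SE 0.28, edgeR adjusted p = 0.115), C5ar2 (0.57, SE 0.21, edgeR adjusted p = 0.186) and C1qb (1.17, SE 0.47, edgeR adjusted p = 0.219). Of the 5 late ND mice, 4 exceeded all untreated mice in C3 and 4 in C1qb, but no member separated the groups, as 5.48% of all genes tested did. C1rl was 0.61 higher (SE 0.29, edgeR adjusted p = 0.305), C5ar1 0.47 (SE 0.27, edgeR adjusted p = 0.411) and Cfp 0.43 (SE 0.24, edgeR adjusted p = 0.403) on the log2 scale. C1qc (0.31, SE 0.57) and C3ar1 (0.27, SE 0.37) had smaller values, and C1qa and Cfb did not pass the filter. Classical monocyte markers summed to 650 to 1317 CPM in untreated mice, and 6 of 8 were called higher after late ND. The part of these cells was not tested.

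Between early ND and untreated mice no member passed the threshold. EdgeR called 0 of 6 members and 0% of 12151 genes, and DESeq2 called 0 members and 0% of genes as well. At an unadjusted p under 0.05 there were 2 of 6, against 4.44% of all genes: C1rl, with a log2 fold change of -1.23 (SE 0.40, edgeR adjusted p = 0.938), and Cfp, with -0.59 (SE 0.27, edgeR adjusted p = 0.938). For both, 3 of 5 early ND mice lay below all untreated mice, and no member separated the groups, against 0.576% of all genes. C5ar1 (-0.46, SE 0.35), C5ar2 (-0.18, SE 0.30), C3 (0.05, SE 0.29) and C3ar1 (0.23, SE 0.31) were within the spread on the log2 scale, and the other 4 members did not pass the filter. The 3 comparisons share libraries, so their values are not independent. Untreated mice lay between the ND groups in mean C1rl, at 4.21 ± 1.64 CPM (SD, n = 5).

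**Figure D3:**
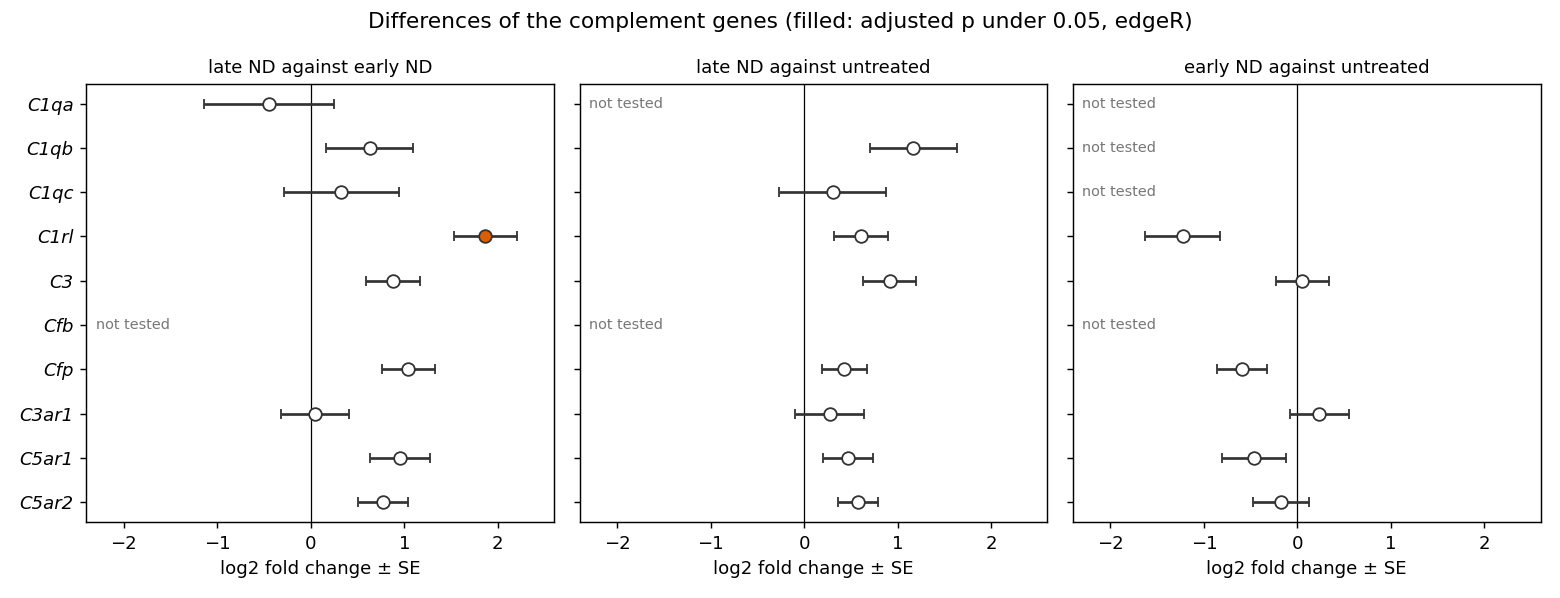
Log2 fold change ± SE from edgeR for each of the 10 genes in the 3 comparisons of 5 against 5 mice, with a filled point where the adjusted p was under 0.05. Only C1rl in late against early ND (1.86) is filled, and genes that did not pass the filter on low counts are marked as not tested.

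The other complement genes were read in the same fits. Between late and early ND, 3 of 19 tested were called, beside the 4.98% of all genes. C4b, which encodes component C4 of the classical and lectin pathways, rose from 5.44 ± 2.696 to 13.9 ± 6.22 CPM (SD, n = 5 each; log2 fold change 1.31, SE 0.34, edgeR adjusted p = 0.0488). Itgam rose from 32.6 ± 11.01 to 62.5 ± 19.2 CPM (SD, n = 5 each; 0.94, SE 0.25, edgeR adjusted p = 0.0492). Cd59a was lower, at 26.0 ± 3.63 CPM after late ND and 45.7 ± 16.3 CPM after early ND (SD, n = 5 each; -0.78, SE 0.21, edgeR adjusted p = 0.0488). All 3 stood just inside the threshold, and without early 1, without early 4 or without any of late 1, late 3, late 4 and late 5, 0 of them passed. Without early 3, 6 of the other complement genes passed, and without late 2, 5. Erythroid markers were also lower after late ND, in 6 of 6 tested, and their part in the Cd59a difference was not tested.

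By role, the called genes were 1 of 3 tested in the classical pathway, 1 of 6 receptors and 1 of 5 membrane regulators, with 0 of 2 fluid-phase regulators, 0 of 2 lectin pathway genes and 0 of 1 terminal pathway gene. Among those not called, Itgb2 had a log2 fold change of 0.48, Cd55 of -0.49 and Clu of -0.60 (edgeR adjusted p from 0.133 to 0.217). Against untreated mice, Cd59a was again lower after late ND (log2 fold change -0.94, SE 0.19, edgeR adjusted p = 0.0250), at 26.0 ± 3.63 against 50.6 ± 14.7 CPM (SD, n = 5 each). It was not called without untreated 3, without untreated 4 or without any one of the 5 late ND mice. Between early ND and untreated mice edgeR called 0 of 16, with 0 at an unadjusted p under 0.05 and 0 by DESeq2.

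Over the 15 mice, properdin and C5ar1 RNA varied almost in step. Pearson r of log2 CPM was computed for the 45 pairs of members with two-sided permutation tests and Benjamini-Hochberg adjustment over the pairs, and 13 pairs, all positive, had an adjusted p under 0.05. Cfp and C5ar1 had r = 0.963 and Spearman's rho = 0.914 (permutation test, p = 1e-05 and 3e-05, adjusted p = 0.00045 and 0.00135). The value 1e-05 is the smallest that these resamples can give. Without the 2 libraries farthest from the median r was 0.945, and after removal of the group means it was 0.949 (permutation test, adjusted p = 0.00045). The pair varied together within groups as well as between them.

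C3 followed both, with r = 0.838 with C5ar1 (rho 0.836, 0.737 without the 2 farthest libraries, 0.840 within groups; permutation test, p = 9e-05, adjusted p = 0.00203) and r = 0.809 with Cfp (rho 0.757, 0.734 and 0.843 respectively; permutation test, p = 0.00028, adjusted p = 0.0042). C5ar1 and C5ar2, which lie next to each other in the genome, had r = 0.697 (rho 0.761, 0.782 without the 2 farthest libraries; permutation test, p = 0.00408, adjusted p = 0.0234). Within groups this pair had r = 0.530 and no longer passed (permutation test, adjusted p = 0.105). The ratio of C5ar1 to C5ar2 CPM ran from 1.40 to 6.70 in untreated mice and from 2.33 to 3.45 after late ND.

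The 3 C1q chains correlated with each other, C1qb with C1qc at r = 0.753, C1qa with C1qc at 0.713 and C1qa with C1qb at 0.686. Each was past the adjusted threshold, also within groups. However, C1qa and C1qc had at most 3 counts in untreated 1, untreated 3, early 2, early 4 and early 5. Among libraries rich in 18S only C1qb with C1qc passed (permutation test, adjusted p = 0.0480, against 0.0574 for C1qa with either). The chains were not apart from C3, which correlated with C1qb (0.643) and C1qc (0.630) past the threshold. Within groups C3 with C1qc was 0.707 and passed (permutation test, adjusted p = 0.024), while C3 with C1qb was 0.509 and did not. C1rl correlated with C3 (0.665), Cfp (0.695) and C5ar1 (0.676) past the threshold, yet within groups the values were 0.624, 0.315 and 0.395 and did not pass. C3ar1 correlated with no other member past the threshold. The libraries share depth and hemoglobin share differences that move with the groups, and among the 12 libraries rich in 18S 4 pairs passed.

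**Figure D4:**
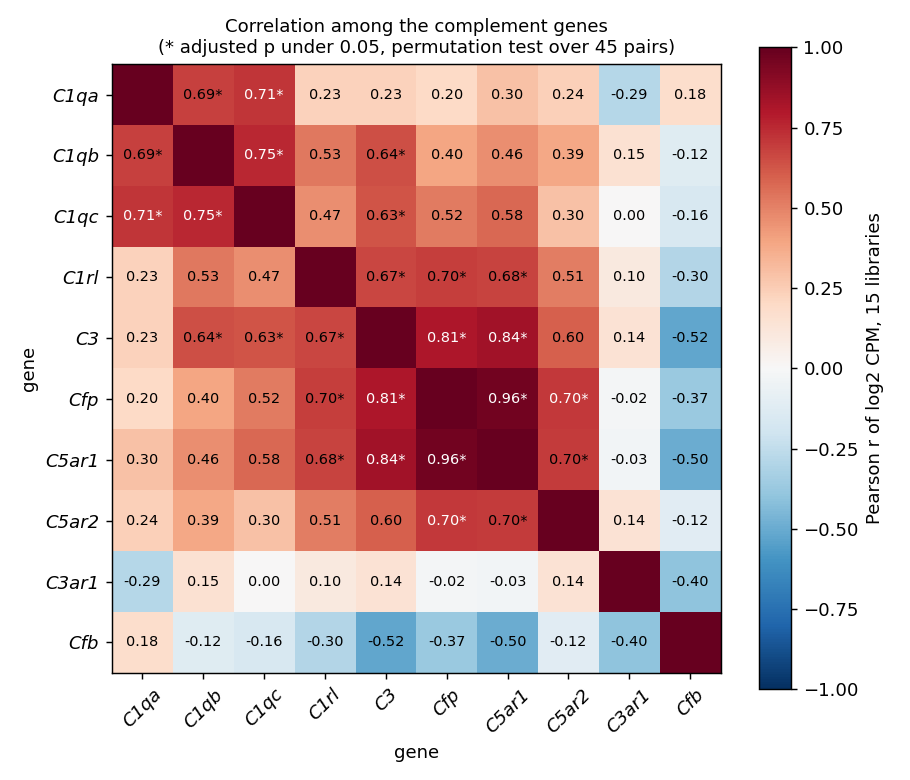
Pearson r of log2 CPM over 15 libraries for each pair of the 10 genes, red for positive and blue for negative values, with an asterisk where the adjusted p was under 0.05. The C1q chains (0.69 to 0.75) and C3, Cfp and C5ar1 (0.81 to 0.96) form red blocks, whereas the row of C3ar1 is pale. The blocks are linked by C3, which also passed with C1qb (0.64) and C1qc (0.63).

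Compared with genes that averaged 50 counts or more per library, those most like Cfp over the 15 libraries by Pearson r of log2 CPM were Anxa2 (0.988), Hp (0.983), Tmem50b (0.982), Itgam (0.980) and Rab31 (0.978). Most like C5ar1 were Apobr (0.978), Cpne2 (0.976), Selplg (0.975), Hp (0.974) and Rhog (0.971). Hp, which encodes haptoglobin, was among the nearest genes of both. For C3 they were Emilin2 (0.953), Atrnl1 (0.951), Grn (0.950), Peds1 (0.941) and Rnpep (0.933).

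C5ar2 was most like Map3k15 (0.941), Osgin1 (0.935), Rell1 (0.933), Mier3 (0.933) and Pde1b (0.931). For C1rl the nearest were H13 (0.871), Sdhb (0.858), Sec61a1 (0.854), B430010I23Rik (0.848) and Nek6 (0.844). For C3ar1 they were Mir6381 (0.841), Oas1a (0.794), Mxd4os1 (0.787), Oas2 (0.742) and Slfn9 (0.740).

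The nearest genes of C1qa, led by Mtnap1 (0.766), of C1qb, led by Spred1 (0.861), and of C1qc, led by 4933416M07Rik (0.791), held no C1q chain, since the chains fell below the minimum of counts. Likewise C1qa was followed by Rfxap, Cnot8, Tns1 and Dipk2a, C1qb by Gm42809, Man2a1, Tnks and Nuak2, and C1qc by Atp2c1, Gm37539, Copg2 and Hdac4. For Cfb, with 4 counts, Katnbl1, Zfp790, Atp9b, Ddx55 and Fam219b were nearest, and no value is read from it. All these values are descriptions over the same 15 libraries, with their shared depth and scaling.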

How the data were processed

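Whole blood of 15 mice (5 per group) was profiled by paired-end RNA sequencing. The authors deposited raw counts of read pairs per gene, made per the labels with STAR 2.7.9, SAMtools 1.7 and HTSeq 0.13.5 on GRCm39. Globin depletion and the strand setting are not given in the sources used here. Groups came from the labels. Between 43.6 and 48.0% of uniquely mapped pairs fell on genes; pairs on no gene or on several were left out.

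Gene identifiers were matched to GENCODE M39 (54749 of 55416). Each pair of groups was tested with edgeR 4.0.16 in R 4.3.3 (filterByExpr, TMM, quasi-likelihood, Benjamini-Hochberg over all genes tested). The code was checked on simulated data with a common profile, a fixed spread and changes only in genes above a minimum of expected counts. That check does not cover the hemoglobin and 18S differences between these libraries. Alternatives were DESeq2 1.42.0, RLE size factors, library totals, other filters, a hemoglobin covariate, a replicate block, 18S-rich libraries and single mice left out. Log2 CPM used a prior count of 2 and correlations 100000 permutations.

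The members and all gene lists were chosen with earlier results of these data known. Named were all members, the other complement genes with an adjusted p under 0.05, the 5 highest per kb, and the 5 genes most like each member. The tissue macrophage markers and the named fibroblast markers were named after their values were seen. One item of the comparison list is not reported here.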

Additional observations from a re-analysis of the deposited data

Results flagged for a closer look

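In a group of 5 mice, Dixon's test sets the gap between an extreme mouse and its neighbor against the range of the group, and chance marks about 1 in 20 groups. Of 30 groups of member values, 5 were marked. For C5ar2 the mouse early 3, at 34.2 CPM, lay far above the other early ND mice. For C1qa the mouse late 2, at 0.280 CPM, lay far below the other late ND mice. The other 3 concern Cfb and come from single libraries with 1 or 2 counts beside libraries with 0: untreated 3 at 0.574 CPM, early 1 at 0.127 CPM and late 5 at 0.0630 CPM.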

How the results depend on the processing

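Between late and early ND, 1 member was called. The number was 7 with library totals in place of TMM, 5 without a filter, 4 with DESeq2, 2 in one fit over all 15 libraries and 0 with the hemoglobin covariate or among 18S-rich libraries, and 1 to 5 with single mice left out. With at least 10 counts in every library it was again 1, but Cfp (edgeR adjusted p = 0.0482), since C1rl was not tested. With library totals the median over all genes tested was 0.86 on the log2 scale, against 0.014. Of the other complement genes 3 were called, against 1 with RLE size factors, 1 with TMM without hemoglobin and 18S genes, 10 with library totals, 5 without a filter, 5 with DESeq2, 0 with the covariate, 0 among 18S-rich libraries and 0 to 6 with single mice left out.

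Between late ND and untreated mice, 0 members were called, against 8 with library totals (median over all genes 0.91, against 0.0023) and 1 each without a filter and with DESeq2. Of the other complement genes 2 were called, against 1 with RLE size factors, 12 with library totals, 4 without a filter, 4 with DESeq2, 0 with the covariate, 0 among 18S-rich libraries and 0 to 2 with single mice left out. Early ND against untreated gave 0 throughout. Of the 45 correlations, 13 passed, against 7 from residuals of the group means and 4 among 18S-rich libraries. The causes were not tested.

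Equal replicate numbers were not taken as pairs. Mean correlations of deviations between same-numbered mice were -0.013 (late against early ND), 0.24 (late ND against untreated) and -0.099 (early ND against untreated). For late ND against untreated all same-numbered pairs were positive (0.029 to 0.58, others on average -0.058), and 3 of 5 correlated best with their own number. With the replicate block, the members called between late and early ND stayed at 1 and the other genes went to 1, and against untreated mice they were 1 (C3, edgeR adjusted p = 0.00979) and 4. Signs turned for values within the spread between late and early ND: C1qa with library totals (0.22), C1qc with the covariate (-0.24) and C3ar1 with the replicate block (-0.022). With single mice left out, C1qa ran from -0.72 to 0.17 and C3ar1 from -0.32 to 0.21. Late ND against untreated, C3ar1 ran from -0.060 to 0.44, and early ND against untreated, C3 ran from -0.14 to 0.19. Counts under 10 per library limit the C1q chains, Cfb, C3ar1 and C1rl.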
